A study of Mus musculus with 35 samples.

Results

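The comparison concerns unirradiated skin of irradiated mice: 16 control libraries of 35 skin libraries in all, 8 from weeks 3 and 4 after radiation (called late) against 8 from weeks 1 and 2 (called early). Libraries were taken by the control label and the week, with no expression value used to pick them. Members, gene lists and rules were set with earlier results of these data known, so counts of list members describe these data only. All mice were labelled female C57BL/6J, an inbred laboratory strain, 10 weeks old at the start. The control libraries (4 for each of 4 weeks) came from mice whose left flank had received 25 Gy, the 16 radiated libraries from the irradiated skin of the same weeks, and the 3 sham libraries from mice that were not irradiated and carry no week. The series text counts 19 mice in 5 groups, so each week was taken from other mice, and a control and a radiated library of the same week and number were read as 2 biopsies of 1 mouse. The labels do not place the control biopsy on the body and do not say whether that skin was shaved, and the hour of collection is not given in the sources used here. Week after radiation, age, date and hour of collection and biopsy position cannot be told apart in this design.

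The mammalian circadian clock is a feedback loop of transcription factors that runs in nearly every cell, skin included. BMAL1 (symbol Arntl in the deposited table) pairs with CLOCK or NPAS2 on E-box sequences and drives the Per and Cry genes, the nuclear receptor genes Nr1d1 and Nr1d2 and the factor genes Dbp, Tef and Hlf. PER and CRY proteins inhibit that pair, NR1D1 and NR1D2 repress Arntl and Npas2 through RORE sequences, and DBP, TEF and HLF act on D-box sequences. Genes of the output arm are therefore high at the hours when Arntl and Npas2 are low, and the reverse.

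Clock genes led the difference between early and late control skin. Of 17301 genes tested, 28 had an adjusted p under 0.05 (edgeR quasi-likelihood F test, Benjamini-Hochberg), which is 0.162% of all genes. Differences are given as log2 of late over early. In late skin 11 of them were higher (0.0636%) and 17 were lower (0.0983%). Among these 28 were 10 of the 19 clock genes listed. The remaining increases held Hoxc10, Hoxb9 and Hoxa9, which are listed position genes, and Shox2 and Emx2, homeobox genes outside that list, and the remaining decreases held Mylk4, a kinase gene of striated muscle, and Pfkfb3, a regulator of glycolysis. Across all genes tested the median difference was 0.0049 on the log2 scale. Of the 28, 15 passed with each library left out in turn, and the other 13 missed the threshold without 6 to 14 of the 16 libraries. DESeq2's Wald test called 189 genes and a model with a mean for each week 249, each including all 28, while the count was 8, with 5 of the 28 among them, with hair, muscle and adipocyte scores as covariates. It was 16 without control library 4 of week 1, 3 or 4 of week 2, or 2 or 3 of week 4, and 56 without library 2 of week 3.

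**Figure D1:**
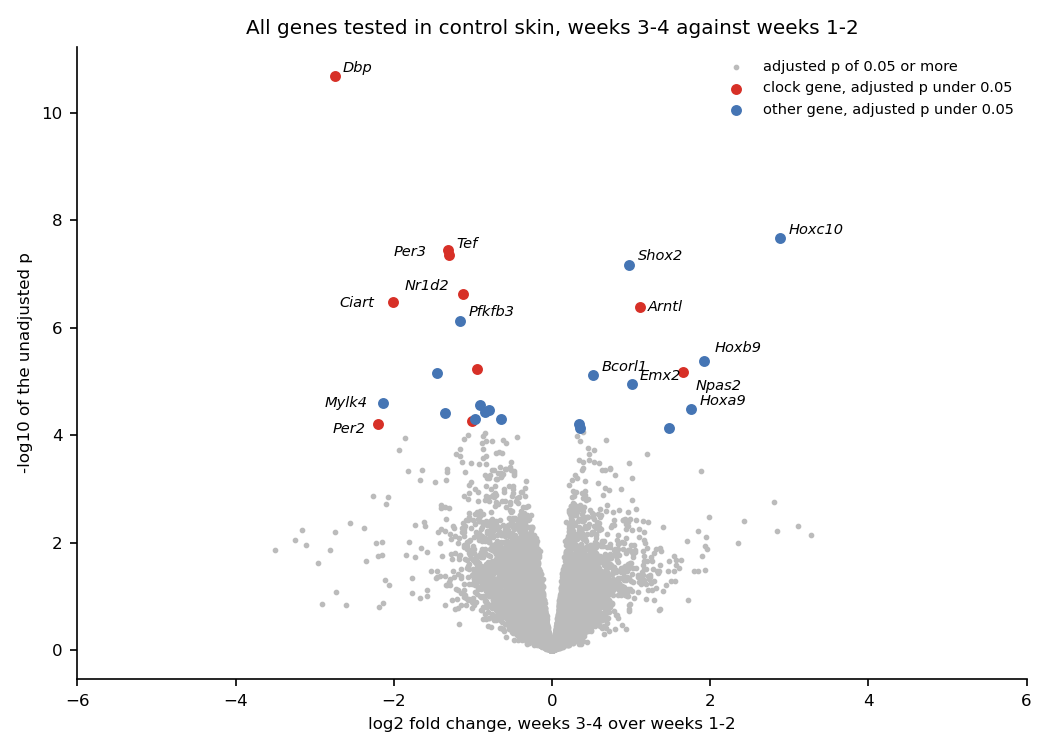
All 17301 genes tested in control skin: the horizontal axis is the log2 fold change of weeks 3 and 4 over weeks 1 and 2, and the vertical axis is minus log10 of the unadjusted p. Coloured points are the 28 genes with an adjusted p under 0.05, the 10 clock genes in red. Dbp (-2.75) stands highest of all, and Hoxc10 (2.88) is the coloured point farthest to the right.

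Promoter windows of 5 clock genes are shown because clock factors act through short motifs near such starts. Each window runs from 250 bases before to 50 bases after a RefSeq start (build GRCm38.p6), read 5′ to 3′ on the gene's strand, with motif matches in capitals. CACGTG was searched as the E-box, TTATGTAA, TTACATAA and TTACGTAA as the D-box, and TAGGTCA with its reverse complement TGACCTA as the RORE. Both strands were covered, since the E-box and TTACGTAA are their own reverse complements and the other D-box forms are those of each other. Of 32851 windows of the same length in the table, 7.15% held the E-box, 1.06% a D-box and 2.61% a RORE. Of 12 output-arm genes, 10 were in the table with 12 windows, and 4 genes (Bhlhe41, Ciart, Per1 and Tef) had an E-box. The Ciart window (chr3:95882179-95882478, minus strand) has 3 E-boxes, the Tef window (chr15:81811164-81811463, plus strand) has 1, and the Per3 window (chr4:151044616-151044915, minus strand) has 2 D-boxes. Of 7 activator-arm genes, 6 were in the table with 9 windows. The Arntl window (chr7:113207261-113207560, plus strand) has 1 RORE and the other Arntl window none, Nfil3 has 1 RORE, and Cry1 has 1 E-box. The Dbp window (chr7:45704997-45705296, plus strand) held none of these letters. A match is a description of letters, and binding was not measured.
Ciart: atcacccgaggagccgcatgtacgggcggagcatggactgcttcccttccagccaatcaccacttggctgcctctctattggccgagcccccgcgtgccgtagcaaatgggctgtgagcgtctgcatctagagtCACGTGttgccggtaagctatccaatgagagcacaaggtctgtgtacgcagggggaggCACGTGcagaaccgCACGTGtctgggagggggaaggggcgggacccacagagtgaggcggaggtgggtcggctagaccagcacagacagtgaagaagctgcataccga
Tef: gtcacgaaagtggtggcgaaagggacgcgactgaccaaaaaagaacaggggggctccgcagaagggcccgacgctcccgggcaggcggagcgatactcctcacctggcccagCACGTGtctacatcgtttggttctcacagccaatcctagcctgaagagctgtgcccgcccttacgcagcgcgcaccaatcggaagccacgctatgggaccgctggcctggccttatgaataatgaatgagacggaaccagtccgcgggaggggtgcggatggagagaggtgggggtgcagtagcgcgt
Per3: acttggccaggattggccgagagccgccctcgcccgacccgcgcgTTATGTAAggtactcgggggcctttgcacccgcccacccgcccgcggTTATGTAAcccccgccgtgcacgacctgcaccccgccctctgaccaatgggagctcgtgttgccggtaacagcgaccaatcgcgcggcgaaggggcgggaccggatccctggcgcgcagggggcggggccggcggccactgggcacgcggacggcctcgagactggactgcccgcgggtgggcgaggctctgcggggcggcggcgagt
Arntl: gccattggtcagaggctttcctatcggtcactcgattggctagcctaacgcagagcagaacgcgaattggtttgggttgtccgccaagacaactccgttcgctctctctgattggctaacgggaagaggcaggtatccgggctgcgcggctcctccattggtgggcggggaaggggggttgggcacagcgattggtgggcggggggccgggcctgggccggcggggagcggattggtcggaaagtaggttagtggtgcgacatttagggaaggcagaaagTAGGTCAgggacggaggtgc
Dbp: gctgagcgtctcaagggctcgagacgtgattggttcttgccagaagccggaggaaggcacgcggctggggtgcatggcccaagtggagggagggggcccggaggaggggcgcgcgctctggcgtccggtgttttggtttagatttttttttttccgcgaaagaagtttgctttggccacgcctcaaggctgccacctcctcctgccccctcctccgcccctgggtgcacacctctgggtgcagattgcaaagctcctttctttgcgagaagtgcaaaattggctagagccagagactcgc

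Output genes of the clock fell in late control skin. Of the 12 listed, 8 had an adjusted p under 0.05 and a lower level late (background 0.0983%), 12 of 12 had an unadjusted p under 0.05 in that direction (background 6.33%), and the list's median difference was -1.06 on the log2 scale beside 0.0049 for all genes tested. In 6 of them, Dbp, Tef, Per3, Nr1d2, Ciart and Bhlhe41, every late library was below every early library, which was so for 22 genes or 0.127% of those tested. From week 2 to week 3, 8 of the 12 fell (background 0.308%) and none rose, while 1 rose and 1 fell from week 1 to week 2 (background 2.73% and 2.61%). From week 3 to week 4, 2 rose (Tef and Hlf, background 9.81%) and 2 fell (Per2 and Bhlhe40, background 11.4%).

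Dbp, which encodes a D-box activator and is among the most strongly cycling genes of mouse tissues, gave the smallest p of all genes. Dbp (ENSMUSG00000059824, chromosome 7, 45705088 to 45710203, GRCm38) stood at 38.8, 45.8, 41.9 and 62.1 CPM in week 1 (CPM is the usual measure of a count relative to its library total, here scaled by trimmed mean of M values) and at 45, 68.7, 47.3 and 40.3 CPM in week 2. It stood at 4.37, 7.33, 11.3 and 4.74 CPM in week 3 and at 6.61, 8.84, 6.88 and 8.07 CPM in week 4. The early and late groups did not overlap, and within each of them the weeks did. On the log2 scale the difference was -2.75 (SE 0.19, adjusted p = 3.55e-07, edgeR), with 0.10 for week 2 over week 1 (adjusted p = 0.864) and 0.11 for week 4 over week 3 (adjusted p = 0.807).

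Tef and Per3 also fell, by less. Tef, the second D-box activator, stood at 95.9, 120, 99.2 and 135 CPM in week 1 and 113, 184, 146 and 121 CPM in week 2, against 48.6, 39.1, 39.9 and 42.8 CPM in week 3 and 49.3, 62.3, 62.4 and 67.0 CPM in week 4. Per3, a period gene that is not needed for rhythm itself, stood at 49.6, 54.6, 36.8 and 54.4 CPM and 56.5, 67.7, 60.6 and 62.3 CPM in weeks 1 and 2. In weeks 3 and 4 Per3 stood at 26.3, 14.5, 21.7 and 16.7 CPM and 21.6, 25.8, 29.0 and 23.7 CPM. For both genes the lowest early library was above the highest late library. Within the late period Tef rose from week 3 to week 4 by 0.48 on the log2 scale (adjusted p = 0.033, edgeR), with all week 4 libraries above all of week 3. On the log2 scale the differences were -1.31 for Tef (SE 0.14, adjusted p = 0.000189, edgeR) and -1.31 for Per3 (SE 0.14, adjusted p = 0.000189).

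Ciart, Nr1d2, Bhlhe41 and Cry2, which encode repressors of the loop, also fell. Ciart, whose product represses the BMAL1 pair, ran from 6.19 to 18.5 CPM early (median 10.3) and from 1.56 to 3.77 CPM late (median 3.12), a log2 difference of -2.01 (SE 0.26, adjusted p = 0.000834, edgeR). Nr1d2, the REV-ERB beta gene, ran from 162 to 328 CPM early (median 210) and from 69.8 to 121 CPM late (median 108), a log2 difference of -1.12 (SE 0.14, adjusted p = 0.000693). Bhlhe41, a repressor that competes for E-boxes, ran from 41.9 to 71.0 CPM early and from 17.4 to 35.4 CPM late, with -0.95 (SE 0.15, adjusted p = 0.00903). In these 3 genes the early and late ranges were separate. Cry2, a cryptochrome repressor, ran from 40.7 to 106 CPM early and from 27.3 to 57.8 CPM late, and the ranges overlapped in 2 early libraries, the 57.5 CPM of week 1 and the 40.7 CPM of week 2. Its log2 difference was -1.01 (SE 0.19, adjusted p = 0.0386), and it passed in 12 of 26 alternative analyses.

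Per2, a period gene that also responds to glucocorticoids and other acute signals, changed within both periods as well as between them. It stood at 12.4, 41.9, 40.5 and 47.2 CPM in week 1, 44.8, 108, 115 and 82.3 CPM in week 2, 25.5, 14.4, 26.0 and 13.4 CPM in week 3 and 7.04, 5.93, 7.52 and 7.57 CPM in week 4. The early and late ranges overlapped through control library 1 of week 1. The change between periods was -2.20 on the log2 scale (SE 0.42, adjusted p = 0.0416, edgeR), beside an increase of 1.31 from week 1 to week 2 (adjusted p = 0.0417) and a decrease from week 3 to week 4 (-1.52 on the log2 scale, adjusted p = 0.0096). With single libraries left out, the change between periods passed in 6 of 16 fits.

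The other 4 output genes missed the threshold, each with a lower mean late. Per1, the period gene that responds fastest to light and stress hormones, ran from 93.7 to 489 CPM early and from 104 to 197 CPM late, a log2 difference of -0.91 (adjusted p = 0.215, edgeR). It was higher in week 1 (267, 414, 416 and 489 CPM) than in week 2 (93.7, 235, 239 and 168 CPM), with -1.11 for that step (adjusted p = 0.028). Nr1d1, the REV-ERB alpha gene, gave -0.85 (adjusted p = 0.0974) and Bhlhe40 gave -0.91 (adjusted p = 0.228). Bhlhe40 fell from week 3 (119, 102, 99.6 and 146 CPM) to week 4 (42.7, 61.2, 42.3 and 47.7 CPM), with -1.29 on the log2 scale (adjusted p = 0.00144). Hlf, the remaining D-box activator, gave -0.49 between periods (adjusted p = 0.453). Its week 3 libraries (45.5, 33.3, 50 and 41.3 CPM) were below all 4 of week 4 (80.2, 92.8, 106 and 91.7 CPM), and that step was 1.11 on the log2 scale (adjusted p = 0.00233).

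The activator arm rose, led by Arntl and Npas2. Of the 7 genes listed, 2 had an adjusted p under 0.05 and a higher level late (background 0.0636%), and 3 an unadjusted p under 0.05 (background 4.62%). From week 2 to week 3, 2 of them rose (background 1.13%), and the list's median between periods was 0.04. Arntl (ENSMUSG00000055116, chromosome 7, 113207465 to 113314126) stood at 25.6, 24.5, 33.5 and 24.1 CPM in week 1 and 15.3, 19.3, 26.5 and 36.2 CPM in week 2. It stood at 62.5, 57.1, 49.9 and 50.7 CPM in week 3 and 66.4, 55.6, 55.7 and 47.2 CPM in week 4. All late libraries were above all early ones, and the log2 difference was 1.11 (SE 0.14, adjusted p = 0.000883, edgeR). Npas2, the gene of the alternative partner of BMAL1, stood at 10.6, 5.94, 9.45 and 7.44 CPM in week 1, 4.37, 3.74, 3.01 and 4.22 CPM in week 2, 12.0, 16.3, 12.8 and 14.7 CPM in week 3 and 25.8, 26.4, 25.4 and 22.1 CPM in week 4. The late libraries were again all above the early ones, and every week differed from the one before it. The log2 difference between periods was 1.66 (SE 0.26, adjusted p = 0.00906), with -1.12 from week 1 to week 2 (adjusted p = 0.00459), 1.86 from week 2 to week 3 (adjusted p = 0.000114) and 0.82 from week 3 to week 4 (adjusted p = 0.00426). Npas2 had the smallest p of all genes in the test over the 4 weeks.

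The other activator genes missed the threshold. Clock itself ran from 104 to 149 CPM early and from 143 to 188 CPM late, with 0.35 (SE 0.08, adjusted p = 0.0852, edgeR), and its weeks lay in the order of those of Arntl, with -0.03 for week 2 over week 1, 0.32 for week 3 over week 2 and 0.08 for week 4 over week 3. Cry1, a cryptochrome gene that peaks later than the other E-box genes, stood at 10.4, 15.8, 20.7 and 17.1 CPM in week 1, 22.1, 46.7, 38.9 and 53.3 CPM in week 2, 45, 44.4, 31.9 and 27.3 CPM in week 3 and 29.8, 16.8, 17.5 and 19.4 CPM in week 4. It was high in the middle weeks and low in the outer weeks, rising by 1.34 to week 2 (adjusted p = 0.0115) and changing by -0.85 to week 4 (adjusted p = 0.0337), and its difference between periods was 0.04 (adjusted p = 0.975). Rora gave -0.30 (adjusted p = 0.52) and Nfil3 -0.19 (adjusted p = 0.853). The signs for Cry1 and Nfil3 were not stable across the alternative analyses.

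**Figure D2:**
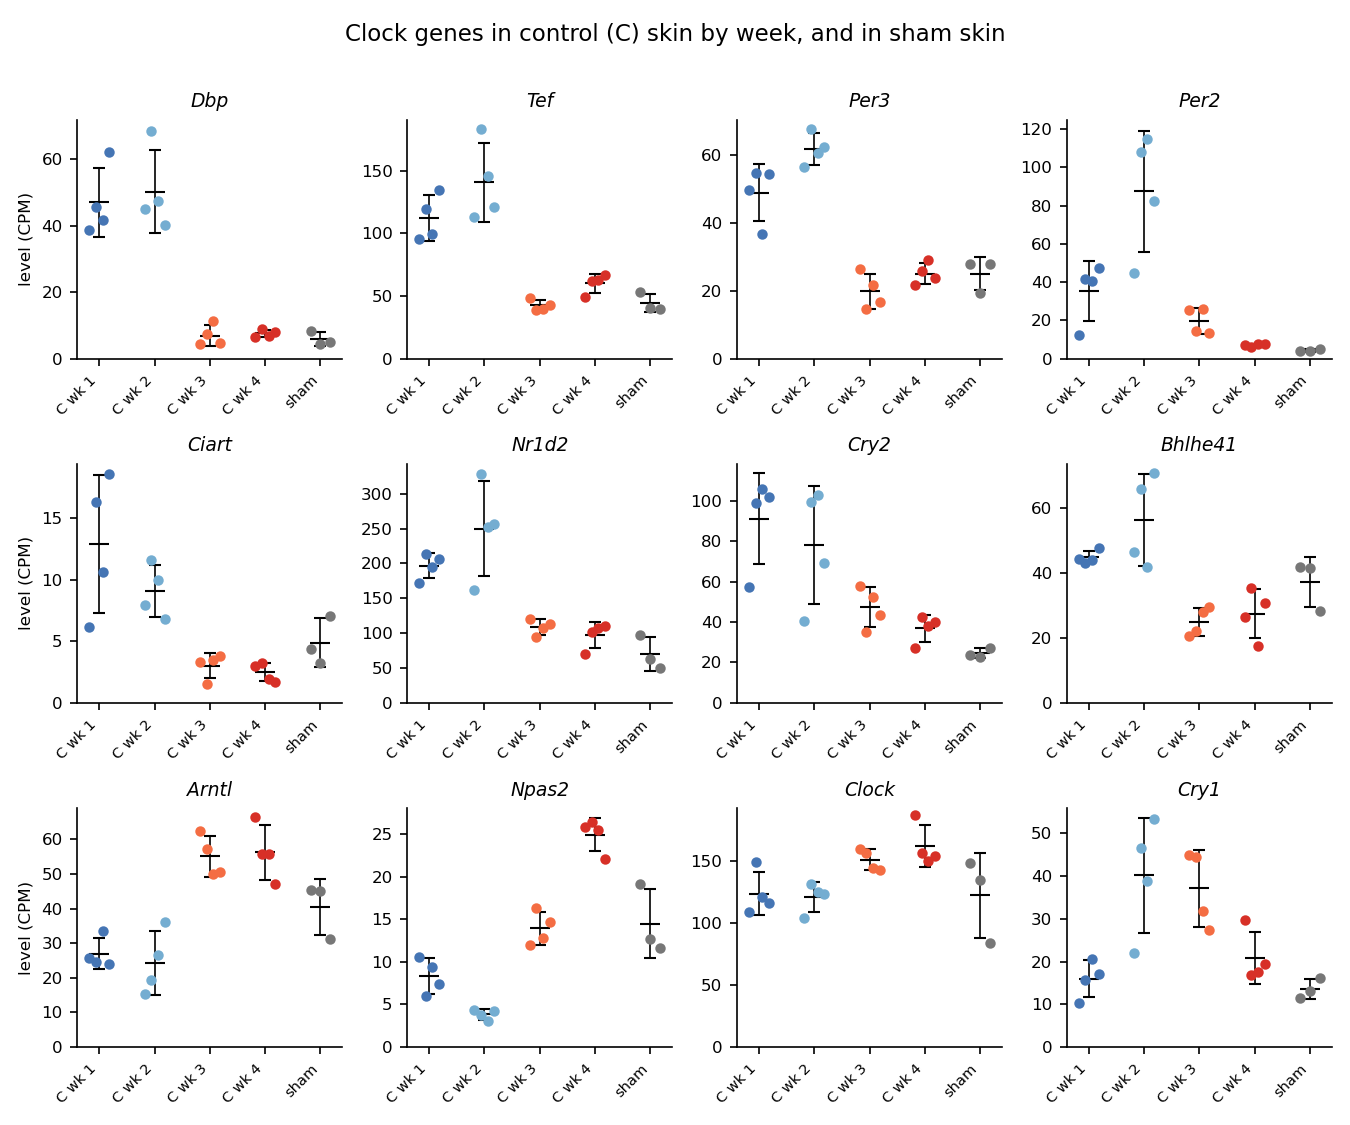
Levels in CPM (vertical axes, from 0) of 12 clock genes in each control library by week and in the 3 sham libraries. Points are libraries, and bars are the mean and SD of a group. Dbp, Tef, Per3, Ciart, Nr1d2 and Bhlhe41 show no overlap between weeks 1 and 2 and weeks 3 and 4, and Cry1 is high in weeks 2 and 3.

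Sham skin, which is from other mice and carries no week, had clock levels close to those of the late control skin for several genes. Dbp stood at 8.43, 4.42 and 5.06 CPM, Tef at 52.8, 40.2 and 39.8 CPM and Per3 at 27.9, 19.3 and 27.8 CPM, which is inside the late ranges and below all early libraries. Per2 stood at 3.88, 3.77 and 5.21 CPM, below all 16 control libraries. Arntl, at 45.3, 44.9 and 31.2 CPM, lay between the periods in 2 libraries and within the early range in the third, and Npas2 at 19.1, 12.7 and 11.6 CPM lay within or beside the late range. These are values side by side, with no test.

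Radiated skin of the same mice showed the clock change as well. The 32 control and radiated libraries entered 1 fit with no term for the mouse, so the pairing of sites was not used. In that fit 36 genes passed between periods in control skin (0.195% of 18479) and 6076 in radiated skin (32.9%). In radiated skin the log2 difference was -3.49 for Dbp (SE 0.27, adjusted p = 1.15e-10, edgeR), with 17.4 to 74.7 CPM early and 2.56 to 8.11 CPM late. It was -2.43 for Per2, -2.52 for Ciart, -1.72 for Per3 and 1.27 for Npas2. The difference of the change between the sites did not pass for Dbp (-0.75, adjusted p = 0.138), Per2 (-0.23, adjusted p = 0.828), Ciart (-0.52, adjusted p = 0.429), Per3 (-0.41, adjusted p = 0.304) or Npas2 (-0.40, adjusted p = 0.57). Across all genes that difference passed for 3177 of 18479 (17.2%). The genes with its smallest p, Saa3, Inhba and Pcsk5 on one side and Nectin3, Arhgap44 and Tmem177 on the other, had differences from -0.28 to 0.31 in control skin, where none passed.

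For several clock genes the sites did differ. Tef fell further in radiated skin (-2.09 against -1.30, difference -0.78, adjusted p = 0.00866, edgeR), and so did Nr1d2 (-2.0 against -1.12, adjusted p = 0.0087), Cry2 (-2.05 against -1.01, adjusted p = 0.00498) and Nr1d1 (-1.84 against -0.85, adjusted p = 0.0364). Hlf gave -2.92 in radiated skin and -0.48 in control skin (adjusted p of the difference 6.28e-05). Rora (-1.56 against -0.30, adjusted p = 0.00172) fell in radiated skin and did not pass in control skin. Arntl rose less in radiated skin (0.49 against 1.12, adjusted p = 0.0345). With the mouse as a block, the difference for Bhlhe40 passed too (0.96, adjusted p = 0.00604, against 0.83, adjusted p = 0.0727 without it). The summed level of 22 skeletal muscle genes, given below for control skin, ranged from 33467 to 80776 CPM in early and from 9972 to 29470 CPM in late radiated skin, and its part in these differences was not tested.

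**Figure D3:**
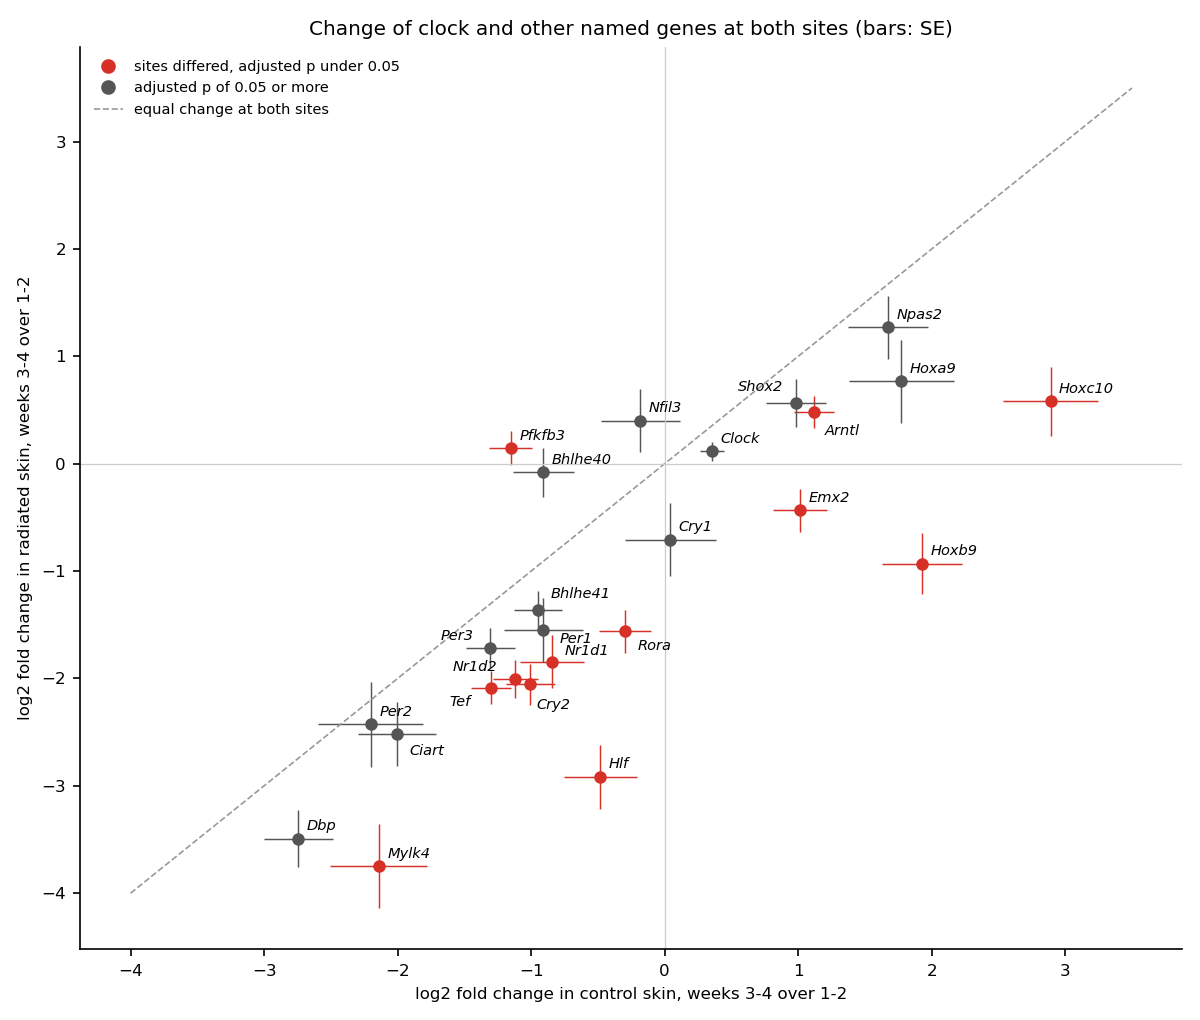
Log2 fold change of weeks 3 and 4 over weeks 1 and 2 in control skin (horizontal) and in radiated skin (vertical) for clock genes and 7 other genes, with SE bars, from 1 fit of 32 libraries. Red points are genes whose change differed between sites at an adjusted p under 0.05. The bars of Per2 cross the dashed line of equal change, Dbp, Ciart and Npas2 are grey points beside it, and Hlf, Hoxb9 and Emx2 lie far below it.

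The levels of 8 clock genes in control skin were set against those in the radiated skin of the same week and number, read as the same mouse. Over all genes, deviations from the group means correlated by 0.08 on average in these pairs (from -0.098 to 0.30), and 6 of 16 pairs exceeded 0.1. After removal of week means, over 16 mice, Pearson's r was 0.76 for Per2 (permutation p = 0.0182, adjusted over 8 genes 0.0611), 0.71 for Npas2 (permutation p = 0.0229, adjusted 0.0611) and 0.68 for Ciart (permutation p = 0.0156, adjusted 0.0611). Spearman's rho was 0.81 for Per2 (permutation p = 0.00535, adjusted 0.0428), 0.64 for Npas2 (adjusted permutation p = 0.113) and 0.60 for Ciart (adjusted permutation p = 0.11). Thus 3 of 8 genes had an unadjusted p under 0.05 by r, none passed after adjustment by r, and Per2 passed by rho. Without the 2 mice farthest from the median of the control value, r was 0.69 for Per2, 0.54 for Npas2 and 0.58 for Ciart (adjusted permutation p from 0.0607 to 0.233), r for Per3 was -0.57 (permutation p = 0.0354, adjusted 0.0945), and the call for Per2 by rho was lost (0.75, adjusted permutation p = 0.123). The remaining genes had r of 0.42 (Dbp), 0.32 (Nr1d1), 0.19 (Nr1d2), 0.02 (Arntl) and -0.11 (Per3), with adjusted permutation p from 0.428 to 0.955. Tests were two-sided, with permutations within weeks.

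Hox genes of body position were among the other increases. These transcription factor genes keep, in adult fibroblasts, a code of where on the body the skin lies. Hoxc10, a gene of the lower trunk and hindlimb (ENSMUSG00000022484, chromosome 15, 102966796 to 102971893), stood at 2.74, 1.90, 0.907 and 0.715 CPM in week 1 and 0.712, 1.81, 0.611 and 0.886 CPM in week 2. It stood at 5.49, 10.9, 9.48 and 7.76 CPM in week 3 and 13.9, 10.5, 8.16 and 10.3 CPM in week 4. The groups did not overlap, and the log2 difference of 2.88 (SE 0.30, adjusted p = 0.000185, edgeR) was the largest increase of any called gene. The 3 sham libraries (7.90, 7.24 and 6.25 CPM) lay among the late values, and radiated skin had 3.03 to 14.0 CPM already in the early weeks, so that its change (0.58) differed from that of control skin (-2.31, adjusted p = 0.0008).

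Hoxb9 and Hoxa9, genes of the posterior trunk, rose with it. Hoxb9 ran from 1.26 to 3.47 CPM early (median 2.3) and from 3.47 to 16.1 CPM late (median 10.3), a log2 difference of 1.92 (SE 0.29, adjusted p = 0.00705, edgeR), and the ranges met in library 2 of week 1 and library 1 of week 3. In radiated skin Hoxb9 gave -0.93, and the sites differed (-2.86, adjusted p = 1.47e-05). Hoxa9 stood at 1.77 to 4.95 CPM early, 3.87 to 6.97 CPM in week 3 and 11.5 to 17.3 CPM in week 4. Its change between periods was 1.76 (SE 0.32, adjusted p = 0.0305) and passed in 7 of 16 fits with single libraries left out. Week 4 exceeded week 3 by 1.51 on the log2 scale (adjusted p = 0.00122). Neighbouring Hox genes lie close together and some of their transcript models overlap, so the counting may split reads between them.

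Of the 20 position genes listed, these 3 were higher at an adjusted p under 0.05 (background 0.0636%) and none was lower, while at an unadjusted p under 0.05 there were 7 higher (background 4.62%) and 1 lower (background 6.33%). The list's median was 0.28. Hoxa7 had 0.80 (adjusted p = 0.0974) and Hoxa10 1.01 (adjusted p = 0.104), both with their highest libraries in week 4. Hoxc8 had -0.07 (adjusted p = 0.939), but exceeded week 3 in week 4 by 0.91 (adjusted p = 0.005). Tbx15, a gene of dorsal and ventral skin identity that is also expressed in muscle, was the lower member (-0.60, adjusted p = 0.27). Shox2 and Emx2 are homeobox genes outside that list, named because they passed, and other such genes were not counted. Shox2, a gene of limb development, ran from 9.95 to 15.3 CPM early and from 18.5 to 29.2 CPM late without overlap (0.98, SE 0.11, adjusted p = 0.000231), and Emx2 ran from 6.90 to 12.4 CPM early and from 13.0 to 23.9 CPM late without overlap (1.01, SE 0.17, adjusted p = 0.013). In radiated skin Emx2 gave -0.43, and the sites differed (-1.44, adjusted p = 0.000521).

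**Figure D4:**
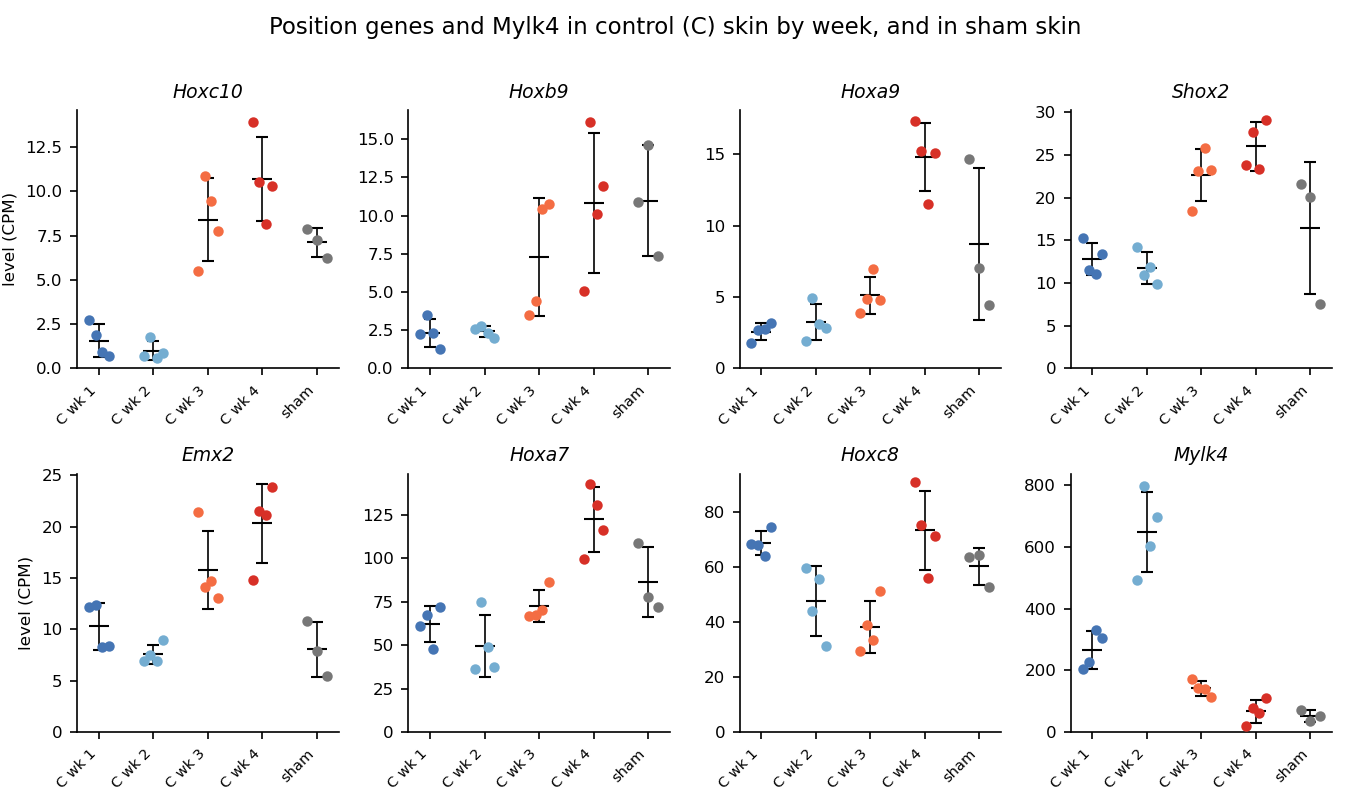
Levels in CPM (vertical axes, from 0) of 5 Hox genes, Shox2, Emx2 and Mylk4 in each control library by week and in sham skin, with mean and SD bars. Hoxc10, Shox2 and Emx2 are separate between weeks 1 and 2 and weeks 3 and 4, Hoxa9 and Hoxa7 are highest in week 4, and Mylk4 falls from week 2 to week 4.

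The remaining increases were Bcorl1, Irf2, Cpne3 and Lilra6. Bcorl1, a corepressor gene, ran from 22.3 to 32.9 CPM early and from 37.5 to 47.7 CPM late without overlap (0.52, SE 0.08, adjusted p = 0.00921, edgeR). Irf2, a repressor of interferon responses, gave 0.34 (adjusted p = 0.0416), Cpne3 0.35 (adjusted p = 0.0462) and Lilra6, a leukocyte receptor gene at 0.168 to 1.49 CPM, 1.47 (adjusted p = 0.0462). With single libraries left out, Irf2 passed in 5 of 16 fits, and Cpne3 and Lilra6 in 2 of 16 each. The lowest Lilra6 value was near the level of 3 counts (0.105 to 0.169 CPM). Pdia6, a chaperone of the endoplasmic reticulum (0.40, adjusted p = 0.0519), and Kmt2a, a histone methyltransferase gene (0.32, adjusted p = 0.0537), missed the threshold.

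Mylk4 and Pfkfb3 were among the decreases outside the clock. Mylk4 stood at 205, 226, 330 and 305 CPM in week 1, 492, 797, 604 and 696 CPM in week 2, 171, 141, 139 and 114 CPM in week 3 and 18.7, 76.9, 61.2 and 110 CPM in week 4. All late libraries were below all early ones, and all week 2 libraries were above all of week 1. Its change was -2.14 (SE 0.38, adjusted p = 0.0272, edgeR), and it passed in 16 of 26 alternative analyses. Pfkfb3, whose product makes the activator of phosphofructokinase, ran from 58.2 to 123 CPM early and from 30.4 to 60.9 CPM late (-1.16, SE 0.16, adjusted p = 0.00141). In radiated skin it gave 0.14, and the sites differed (1.30, adjusted p = 0.000138). Of 16 hypoxia and glycolysis genes, Pfkfb3 alone passed, while 7 were lower (background 6.33%) and 1 was higher (background 4.62%) at an unadjusted p under 0.05, with a median of -0.36.

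The other decreases were Plcd4, a phospholipase C gene (-1.46, adjusted p = 0.00906, edgeR), Cdkn1c, the gene of the cyclin-dependent kinase inhibitor p57 (-1.35, adjusted p = 0.0311), and Fads3, a desaturase family gene (-0.98, adjusted p = 0.0377). Abcd2, a peroxisomal fatty acid transporter gene (-0.90, adjusted p = 0.0279), Eepd1 (-0.84, adjusted p = 0.0311), Cacna1a, a calcium channel subunit gene (-0.79, adjusted p = 0.0305), and Dyrk1b, a kinase gene (-0.64, adjusted p = 0.0377), completed the 17. With single libraries left out, Plcd4 passed in 16 of 16 fits, Abcd2 in 10 and Cdkn1c in 7. Fads3, Eepd1 and Cacna1a passed in 6 each and Dyrk1b in 4. Plcd4 ran from 24.8 to 48.2 CPM early and from 5.29 to 19.8 CPM late without overlap. Fads3 fell in control skin and gave 1.07 in radiated skin, and the sites differed (2.04, adjusted p = 5.72e-05).

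Skeletal muscle genes were lower in many late libraries without passing the test. None of the 22 listed had an adjusted p under 0.05, 13 were lower at an unadjusted p under 0.05 (background 6.33%) and none was higher, and the list's median was -0.84. Their summed level ran from 72918 to 152570 CPM early, from 64804 to 117737 CPM in week 3 and from 5626 to 64864 CPM in week 4, so that 3 week 4 libraries were the lowest of the 16, library 1 by far, and the remaining one lay beside the lowest of week 3. Actn3, a fast-fibre actinin gene, ran from 835 to 2129 CPM early and from 42.7 to 1057 CPM late (-1.35, adjusted p = 0.261, edgeR). All 22 genes were detected in these libraries, so the biopsies held RNA of these genes, and in bulk tissue fewer cells of a type and less RNA per cell cannot be told apart. With the muscle list's score as a covariate, 20 genes passed and 13 of the 28 were among them, 6 of these being clock genes. In that fit Mylk4 gave -1.39 on the log2 scale (adjusted p = 0.0583, edgeR), Plcd4 -1.01 (adjusted p = 0.00871) and Dbp -2.70 (adjusted p = 2.31e-05).

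Respiratory chain and fat genes leaned the same way between periods. Of 29 nuclear genes of respiratory chain subunits, none passed after adjustment, and 20 were lower at an unadjusted p under 0.05 (background 6.33%), with a median of -0.28. Of 21 adipocyte genes tested, none passed after adjustment, 12 were lower (background 6.33%) and 1 was higher (background 4.62%) at an unadjusted p under 0.05, and the median was -0.52. From week 3 to week 4, 7 adipocyte genes rose (background 9.81%), none fell (background 11.4%) and the median was 0.65. Over that step 7 of the 22 skeletal muscle genes fell, none rose, and the median was -1.25. Car3, a carbonic anhydrase abundant in fat and muscle, ran from 994 to 1753 CPM early and from 300 to 983 CPM late without overlap (-0.83, adjusted p = 0.128, edgeR). Adipoq, the adiponectin gene, gave -0.95 (adjusted p = 0.261) and differed from week 3 to week 4 by 1.00 (adjusted p = 0.044).

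Matrix genes did not pass between the periods. Among 13 fibrillar collagen genes, 21 collagen-processing genes and 23 other matrix genes, none had an adjusted p under 0.05 in either direction, and 2, 2 and 4 of them were lower at an unadjusted p under 0.05 (background 6.33%), with 1 of the other matrix genes higher (background 4.62%). The medians were -0.37, -0.13 and -0.20. Col1a1, the type I collagen gene, stood at 6570, 2329, 5153 and 4868 CPM in week 1, 3055, 949, 1704 and 1722 CPM in week 2, 366, 3500, 2132 and 4863 CPM in week 3 and 1159, 1156, 456 and 678 CPM in week 4. The weeks overlapped across periods, and library 1 of week 3 was the lowest of the 16. Its log2 difference was -0.88 (SE 0.52, adjusted p = 0.555, edgeR). The step from week 3 to week 4 passed for 5 fibrillar collagen genes, all lower (Col1a1 -1.68, adjusted p = 0.0457), and for 9 collagen-processing genes, all lower (Loxl2 -0.94, adjusted p = 0.0057), beside a background of 11.4% lower. From week 1 to week 2, 8 of the other matrix genes were lower (elastin gene Eln -1.23, adjusted p = 0.0085; fibrillin gene Fbn1 -1.34, adjusted p = 0.017), beside 2.61%.

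Immediate early genes, which respond within minutes to handling, wounding and growth factors, did not pass between the periods either, and differed between neighbouring weeks. Of 27 tested, none passed between periods and the median was 0.05, with 3 lower at an unadjusted p under 0.05 (background 6.33%). From week 1 to week 2, 10 fell (background 2.61%) and none rose, among them Egr1 (-1.65, adjusted p = 0.021, edgeR), Jun (-1.31, adjusted p = 0.031) and Fosb (-2.24, adjusted p = 0.021). From week 3 to week 4, 6 rose (background 9.81%) and 6 fell (background 11.4%). Fos stood at 1293, 154, 362 and 250 CPM in week 1, 37.4, 60.7, 135 and 196 CPM in week 2, 234, 63.4, 140 and 80.8 CPM in week 3 and 512, 2040, 1661 and 1400 CPM in week 4. Week 4 exceeded week 3 in every library, by 3.42 on the log2 scale (adjusted p = 0.0038). Fosl1 and Nr4a3 went the other way over the same step (-5.71, adjusted p = 0.000193, and -3.42, adjusted p = 0.00019), and Fosl1 stood at 111 to 147 CPM in week 3 and 1.31 to 3.94 CPM in week 4. Heat shock genes had 0 of 17 past the threshold between periods (2 at an unadjusted p under 0.05, both higher, background 4.62%), and 5 of 17 fell from week 3 to week 4, beside 11.4% of all genes (Hsp90aa1 -0.75, adjusted p = 0.0042). Of 16 genes induced by glucocorticoids, none passed between periods and 5 were lower at an unadjusted p under 0.05 (background 6.33%), Klf15 (-0.69, adjusted p = 0.0956) and Tsc22d3 (-0.63, adjusted p = 0.329) among them.

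Interferon-stimulated genes were high in part of the week 3 libraries. Of 28 tested, none passed between periods, 13 were higher at an unadjusted p under 0.05 (background 4.62%), and the median was 0.88. Oas3, an antiviral enzyme gene, stood at 5.13, 150, 51.0 and 33.8 CPM in week 3, against 2.80 to 16.1 CPM early and 3.39 to 15.7 CPM in week 4. Libraries 2, 3 and 4 of week 3 were thus above all others and library 1 was not. From week 3 to week 4, 18 of the 28 fell (background 11.4%), Irf7 by 2.52 on the log2 scale (adjusted p = 0.011, edgeR), together with 13 of 18 macrophage genes (C1qa -2.16, adjusted p = 0.0068). Of 15 sebaceous gland genes, none passed between periods and 7 were higher at an unadjusted p under 0.05 (background 4.62%), led by Scd3, a sebocyte desaturase (1.20, adjusted p = 0.0715).

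**Figure D5:**
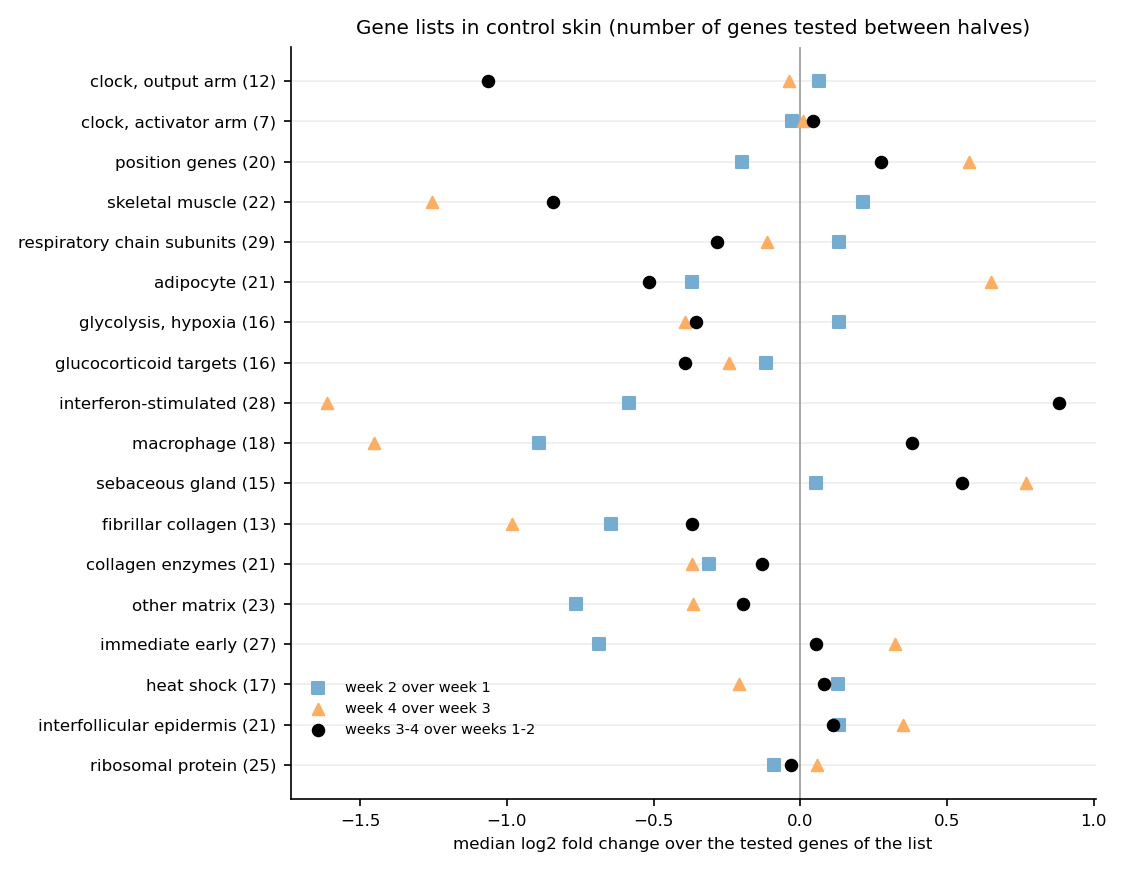
Median log2 fold change over the tested genes of 18 gene lists in control skin: black circles for weeks 3 and 4 over weeks 1 and 2, blue squares for week 2 over week 1 and orange triangles for week 4 over week 3. The output arm of the clock lies at -1.06 between periods and near 0 within them, while the interferon list lies at 0.88 between periods and at -1.61 for week 4 over week 3.

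Single weeks also differed from one another. In the model with a mean for each week, whose contrast of the periods called 249 genes, the test over the 4 weeks was passed by 4346 of 18192 genes (23.9%). All 28 genes called between periods were among them, and 12 of the 28 were called in the same direction in each of the 4 comparisons of a late with an early week: Dbp, Tef, Per3, Nr1d2, Ciart, Arntl, Npas2, Hoxc10, Shox2, Bcorl1, Pfkfb3 and Plcd4. From week 1 to week 2 971 genes passed (5.34%), 497 of them higher (2.73%) and 474 lower (2.61%), a count that was 351 without control library 4 of week 2, 543, 625 and 584 without libraries 1, 2 and 4 of week 1, and 1698 by DESeq2's Wald test, and from week 2 to week 3 261 passed (1.43%). The other pairs of weeks gave 1085 genes for week 3 against 1 (5.96%), 849 for week 4 against 1 (4.67%) and 2984 for week 4 against 2 (16.4%). From week 3 to week 4 3862 passed (21.2%), 1784 higher and 2078 lower, and on total count scaling, which moved the median of all genes from -0.02 to 0.13, 2788 were higher and 1206 lower. Wdr43, a ribosome biogenesis gene, stood at 85.1 to 128 CPM in week 1, 146 to 220 CPM in week 2, 191 to 231 CPM in week 3 and 77.6 to 80.3 CPM in week 4, with a change between periods of 0.02 (adjusted p = 0.987, edgeR). Nol8, Kpna2 and Sdad1, the first and last of which also serve ribosome biogenesis, rose from week 1 to week 2 (1.08, 1.07 and 0.90, adjusted p from 0.000637 to 0.00121), and all 3 fell again from week 3 to week 4 (Nol8 -0.76, adjusted p = 0.00042, Kpna2 -0.64, adjusted p = 0.00194, and Sdad1 -0.91, adjusted p = 0.000115). Pdzrn4 (-2.61), Ccdc149 (-0.93) and Adamtsl3 (-1.10) led the decreases of that first step, and Slitrk6 (2.37) and Pmepa1 (-1.86) were among the leading genes from week 3 to week 4. Gas1, a growth arrest gene, stood at 97.8 to 138 CPM in week 1, 58.8 to 79.4 CPM in week 2, 43.4 to 67.7 CPM in week 3 and 159 to 186 CPM in week 4. Bmp4, a signal that holds hair follicles at rest, rose from 12.5 to 13.9 CPM in week 3 to 40.0 to 47.5 CPM in week 4 (1.70, adjusted p = 3.18e-05), after 21.2 to 35.7 CPM early. Wdr43, Sdad1 and Cry1 were high in the middle weeks, and Gas1 and Bmp4 were high in week 4.

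For the labelled sex, 4 Y-linked genes were read: Kdm5d (7.53 to 15.1 CPM), Uty (5.96 to 12.5 CPM), Ddx3y (0.477 to 2.97 CPM) and Eif2s3y (0.093 to 0.635 CPM) were not at 0 in any control library. The X-linked copies Kdm5c, Kdm6a, Ddx3x and Eif2s3x had medians of 261, 77.1, 1076 and 322 CPM, and whether reads of these copies were counted for the Y-linked genes was not tested. Total counts ran from 20312499 to 28487885 early and from 17773240 to 27688471 late, and mitochondrial messenger RNA took 1.85% to 2.98% and 2.14% to 4.14% of them. All 21 interfollicular epidermis genes listed were detected, with a mean log2 CPM of 7.61 to 8.43 early and 7.67 to 8.44 late. Krt71, an inner root sheath keratin of the growing follicle, stood at 1492, 0.19, 0.668 and 337 CPM in week 1, 742, 0.172, 0 and 22.3 CPM in week 2, 0, 0, 1.12 and 346 CPM in week 3 and 1.64, 0.663, 0.598 and 0.884 CPM in week 4. Libraries 1 and 4 of week 1, 1 of week 2 and 4 of week 3 thus stood far above the others in this marker. With the hair list's score as a covariate, 33 genes passed between periods, 24 of the 28 among them, and Dbp gave -2.81.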

How the data were processed

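Total RNA of skin was extracted with a column kit and sequenced, per the labels' protocols. The deposited table holds 35 skin libraries and 36106 genes. Its values are estimated counts, which the authors made with kallisto 0.46.2 after trimming with Trim Galore 0.6.7 on mouse build mm10, per the submitters' processing notes; 29.5% to 32.5% of the values in a library are not whole, and all were rounded. Estimated counts divide reads among overlapping or near-identical transcripts, which may add error for Hox neighbours and gene families and was not tested. Groups came from the sample labels. No label says that the 4 control libraries of a week are anything but single biopsies of separate mice. In the main comparison of early with late skin, p-values measure the spread among all libraries of a period, with differences between its weeks left in. In the model with a mean for each week, p-values measure the spread among libraries of the same week. Neither model took the week as the unit of replication.

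Early (weeks 1 and 2) and late (weeks 3 and 4) control libraries were compared with edgeR 4.0.16 (R 4.3.3, limma 3.58.1), by filterByExpr, TMM scaling, the quasi-likelihood F test and Benjamini-Hochberg adjustment at 0.05. Weeks were compared with a mean for each of 4 weeks, and the sites in 1 fit of 32 libraries with no term for the mouse. SE is the absolute log2 difference over the root of F. Levels are CPM on TMM-scaled libraries of all 35, over 19813 genes, and log2 CPM used a prior count of 2. Correlations used 100000 permutations (numpy 2.4.6, scipy 1.17.1), and figures matplotlib 3.10.9. DESeq2 1.42.0, other scalings, no filter, covariates, blocks and leaving out single libraries were alternatives. The calling steps were tested on simulated data. Gene positions are GENCODE M21 and promoters RefSeq, both on GRCm38.

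Control libraries held 17773240 to 28487885 counts, so that 3 counts equal 0.105 to 0.169 CPM. Every pair of replicates differed by more than sampling noise. Replicate numbers did not pair control libraries across weeks.

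Members, lists and rules were chosen with earlier results of these data known. Named were the 12 genes with the largest significant change in each direction at 5 CPM or more, filled by smallest p to 12, the other called genes, all listed clock genes, the 5 with the smallest p over the weeks, 3 in each direction for each week step and for the difference between sites, and members of the lists. A listed clock gene is not reported here.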

Additional observations from a re-analysis of the deposited data

Results flagged for a closer look

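In 4 of 152 groups made of 1 gene and the 4 control libraries of 1 week (2.63%), 1 library lay far from the other 3, where chance alone gives about 1 in 20. Control library 1 of week 1 had 12.4 CPM of Per2 (the others 40.5 to 47.2) and 57.5 CPM of Cry2 (the others 98.7 to 106). Library 2 of week 3 had 1.56 CPM of Ciart (the others 3.33 to 3.77). Library 2 of week 2 had 45.2 CPM of Dyrk1b (the others 31.9 to 33.7).

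For 17 of 38 genes followed, the change from early to late weeks differed between radiated and control skin, by the interaction term in edgeR's quasi-likelihood test. Most of these genes were chosen for their change in the same control libraries, which favours such a difference, so the count is not read against the 17.2% of all genes. Among clock genes the radiated minus control difference was -0.63 for Arntl, -0.78 for Tef, -0.89 for Nr1d2, -1.05 for Cry2, -1.0 for Nr1d1, -2.43 for Hlf and -1.26 for Rora. Among homeobox genes it was -2.31 for Hoxc10, -2.86 for Hoxb9 and -1.44 for Emx2. For the remaining genes it was -0.67 for Bcorl1, -0.56 for Cpne3, 0.49 for Pdia6, -0.61 for Kmt2a, -1.61 for Mylk4, 1.30 for Pfkfb3 and 2.04 for Fads3. Adjusted p ran from 1.47e-05 (Hoxb9) to 0.0364 (Nr1d1).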

How the results depend on the processing

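The 28 genes called between early and late control skin became 15 with a replicate block, 249 with a mean for each week, 8 (5 of them among the 28) with hair, muscle and adipocyte scores as covariates and 189 by DESeq2's Wald test. With 1 library left out the count ran from 16 to 56. Dbp, Per3, Tef and Nr1d2 passed in all 26 alternatives, and none of the 28 changed direction. The difference for Cry1 (0.04) was -0.0935 with the hair score, -0.25 with 3 scores and -0.0825 to 0.241 with 1 library left out, and that for Nfil3 (-0.19) was 0.0724 with the muscle score, 0.69 with 3 scores and -0.292 to 0.0110 with 1 library left out. The cause was not tested. From week 1 to week 2 DESeq2 called 1698 genes, and with 1 library left out 351 to 1401 passed: 351 without library 4 of week 2, and 543, 625 and 584 without libraries 1, 2 and 4 of week 1. Between sites of a mouse, with week means left in, r was 0.60 for Arntl, 0.94 for Npas2, 0.88 for Per2, 0.83 for Per3 (from -0.11), 0.79 for Nr1d1, 0.87 for Nr1d2, 0.95 for Dbp and 0.93 for Ciart, since week differences then enter. Without the 2 farthest mice Arntl gave -0.0659 and Per3 -0.57. The replicate block changed no other named count by over 1.5 times. Replicate numbers did not pair control libraries across weeks: the mean correlation of deviations was 0.05 for equal and -0.01 for other numbers.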
